A study of Mus musculus with 6 samples.

Results

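Lectin-like receptors of natural killer (NK) cells outside the Ly49 family were followed in mature thymic natural killer T (NKT) cells with and without DOCK8. The 10 genes were Klrb1a, Klrb1c, Klrb1f, Klrc1, Klrc2, Klrd1, Klre1, Klrg1, Klri2 and Klrk1. They were chosen by name, with earlier results of these data known, from the 19057 genes that the array reads with a probe of 1 symbol. They were read by 15 of the 34885 probes that the platform annotation gives a single gene symbol, on an Illumina mouse array of 45281 probes. The test took probes with signal above background, meaning a detection p from the array software of less than 0.05, on 3 or more of the 6 arrays. This kept 12 of the 15 probes, which read 8 of the 10 genes, among 14559 tested probes in all. Each of the 12 was detected on all 6 arrays. The only probe of Klrb1a was detected on 1 array. The only probe of Klrg1 and a further probe of Klrb1f were detected on none.

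The cells were CD44+ NK1.1+ thymic NKT cells from mice of the Captain Morgan strain, which the labels call DOCK8 deficient, and from wild type mice, both on C57BL/6. The sample titles call the former DOCK8 knockout. DOCK8 is a guanine nucleotide exchange factor for CDC42 in lymphocytes. Each group held 3 biological replicates with 1 array each. The labels give no age or sex, do not say whether a replicate was 1 mouse or a pool, and describe the deficiency as carried by the strain and not as limited to NKT cells. The p-values therefore measure the spread between these samples.

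NKT cells are T cells that recognise lipids on CD1d, and as they mature in the thymus they take on surface receptors typical of NK cells. Those receptors are C-type lectin-like proteins encoded together in the NK gene complex, and they tune the cell by pairing with activating adaptors or by recruiting phosphatases. NK1.1, the product of Klrb1c, defines the mature stage in C57BL/6 mice. CD94, from Klrd1, forms dimers with NKG2A (Klrc1) or NKG2C (Klrc2) that bind the class Ib molecule Qa-1. NKG2D, from Klrk1, is an activating receptor for stress-induced ligands. KLRE1 is known from rat NK cells to pair with KLRI1 or KLRI2.

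Promoter sequences of 7 of the 10 genes were matched by gene symbol in RefSeq (mouse assembly GRCm38.p6), all on chromosome 6. Klrd1, Klrg1 and Klri2 had no match. The 250 bases before the first listed start are shown, in the direction of transcription, for the gated marker Klrb1c and for 3 other genes. These are the matched genes whose values are set apart between the groups below, Klrb1f, Klre1 and Klrk1. Capitals mark matches, on either strand, to TGTGGT (the core bound by RUNX factors), AGGAAG (an ETS core), GGTGTG (part of a T-box site) or TTCNNNGAA (a STAT palindrome). The longest run of capitals in Klrb1c is a pair of overlapping AGGAAG copies.
Klrb1c, chr6:128788642-128788891, strand -: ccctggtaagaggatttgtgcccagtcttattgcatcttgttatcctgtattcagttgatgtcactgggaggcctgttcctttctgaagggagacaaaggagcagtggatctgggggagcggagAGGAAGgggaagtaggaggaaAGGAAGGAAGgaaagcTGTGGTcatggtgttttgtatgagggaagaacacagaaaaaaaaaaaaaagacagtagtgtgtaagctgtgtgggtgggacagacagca
Klrb1f, chr6:129045651-129045900, strand +: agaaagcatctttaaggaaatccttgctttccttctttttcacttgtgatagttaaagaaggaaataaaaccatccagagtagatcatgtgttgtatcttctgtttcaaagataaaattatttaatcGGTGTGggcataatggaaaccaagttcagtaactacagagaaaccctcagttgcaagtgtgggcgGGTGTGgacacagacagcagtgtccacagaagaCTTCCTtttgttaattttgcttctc
Klre1, chr6:129577963-129578212, strand +: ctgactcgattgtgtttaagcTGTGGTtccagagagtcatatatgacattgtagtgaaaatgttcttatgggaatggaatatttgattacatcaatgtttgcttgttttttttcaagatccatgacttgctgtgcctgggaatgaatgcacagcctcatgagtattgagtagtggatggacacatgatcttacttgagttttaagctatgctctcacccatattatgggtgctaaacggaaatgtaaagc
Klrk1, chr6:129623865-129624114, strand -: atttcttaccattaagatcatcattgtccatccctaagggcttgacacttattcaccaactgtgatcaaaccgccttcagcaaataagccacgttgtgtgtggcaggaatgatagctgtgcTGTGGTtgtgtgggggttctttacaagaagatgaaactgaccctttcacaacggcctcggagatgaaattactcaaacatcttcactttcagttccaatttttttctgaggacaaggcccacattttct

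The TGTGGT core lay in 6 of the 7 matched promoters, all but Klrb1f, and in 14.2% of the promoters of 27025 genes over the same 250 bases. AGGAAG lay in 3 of the 7, against 29.2% of all, GGTGTG in 1 of the 7, against 16.2%, and TTCNNNGAA in 0 of the 7, against 7.18%. In Klrb1c the core began 89 bases before the start, downstream of its AGGAAG copies, in Klrk1 it began 129 bases before it, and in Klre1 229 bases. Klrb1f instead held GGTGTG, 123 and 58 bases before its start. Klrb1a and Klrb1c are close copies, so the 7 promoters are not independent of each other. These matches describe letters in a window and were not tested for binding.

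The arrays were alike in correlation but not in brightness. DOCK8-deficient array 2 was the dimmest, with a median intensity of 183 against 212 to 235 on the others, and had the fewest detected probes. Between 16496 and 18451 of the 45281 probes were detected per array, the median intensity lay between 183 and 235, and the mean correlation of an array with the other 5 was 0.977 to 0.981 over tested probes. The 3 probes of Dock8 differed by -0.01, 0.41 and 0.37 on the log2 scale (limma adjusted p from 0.59 to 0.99) and overlapped between the groups. Dock8 transcript thus gives no check of the labels, which do not say whether the mutation lowers it. All 10 listed markers of NKT and T cell identity were detected, and 0 of them passed the test. They include Klrb1c and Cd44, whose products were used in the sort and so are no independent check. Their summed normalised level was 66746 to 67491 on DOCK8-deficient arrays and 65954 to 68930 on wild type arrays. That sum mostly follows the brightest of them, Cd3d, Cd3e and Cd3g (group means of 13.8 to 14.5 on the log2 scale). A bulk array cannot tell fewer cells carrying a transcript from less transcript per cell.

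Most of the receptors read higher in DOCK8-deficient cells, by up to 2.82-fold for Klri2, but 0 of their probes passed the test over all probes. In the comparison of DOCK8-deficient with wild type cells, 11 of the 12 tested probes lay above 0, with a median log2 difference of 0.52, against 48% of all tested probes above 0 and a median of -0.01. Values of the 2 groups did not overlap on 6 of the 12 probes, from Klri2, Klrb1f (both probes), Klre1 and Klrk1 (2 of 4 probes), each higher in DOCK8-deficient cells. Across all tested probes, 7.97% were set apart in that direction and 7.98% in the other, where the receptors had 0. At a limma adjusted p under 0.05 over all 14559 probes, 0 of the 12 were called, beside 31 probes (0.213%) of the whole table, 19 higher (0.131%) and 12 lower (0.0824%). At an unadjusted p under 0.05, 6 of the 12 were higher, against 4.88% of all probes, and 0 were lower, against 5.22%. The receptors were chosen with earlier results of these data known, so these comparisons with all probes describe them and are no independent support. When the test was run with 1 probe per gene, over 9060 genes, Klri2 passed and the other 7 receptors did not, beside 33 genes (0.364%) in all.

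**Figure D1:**
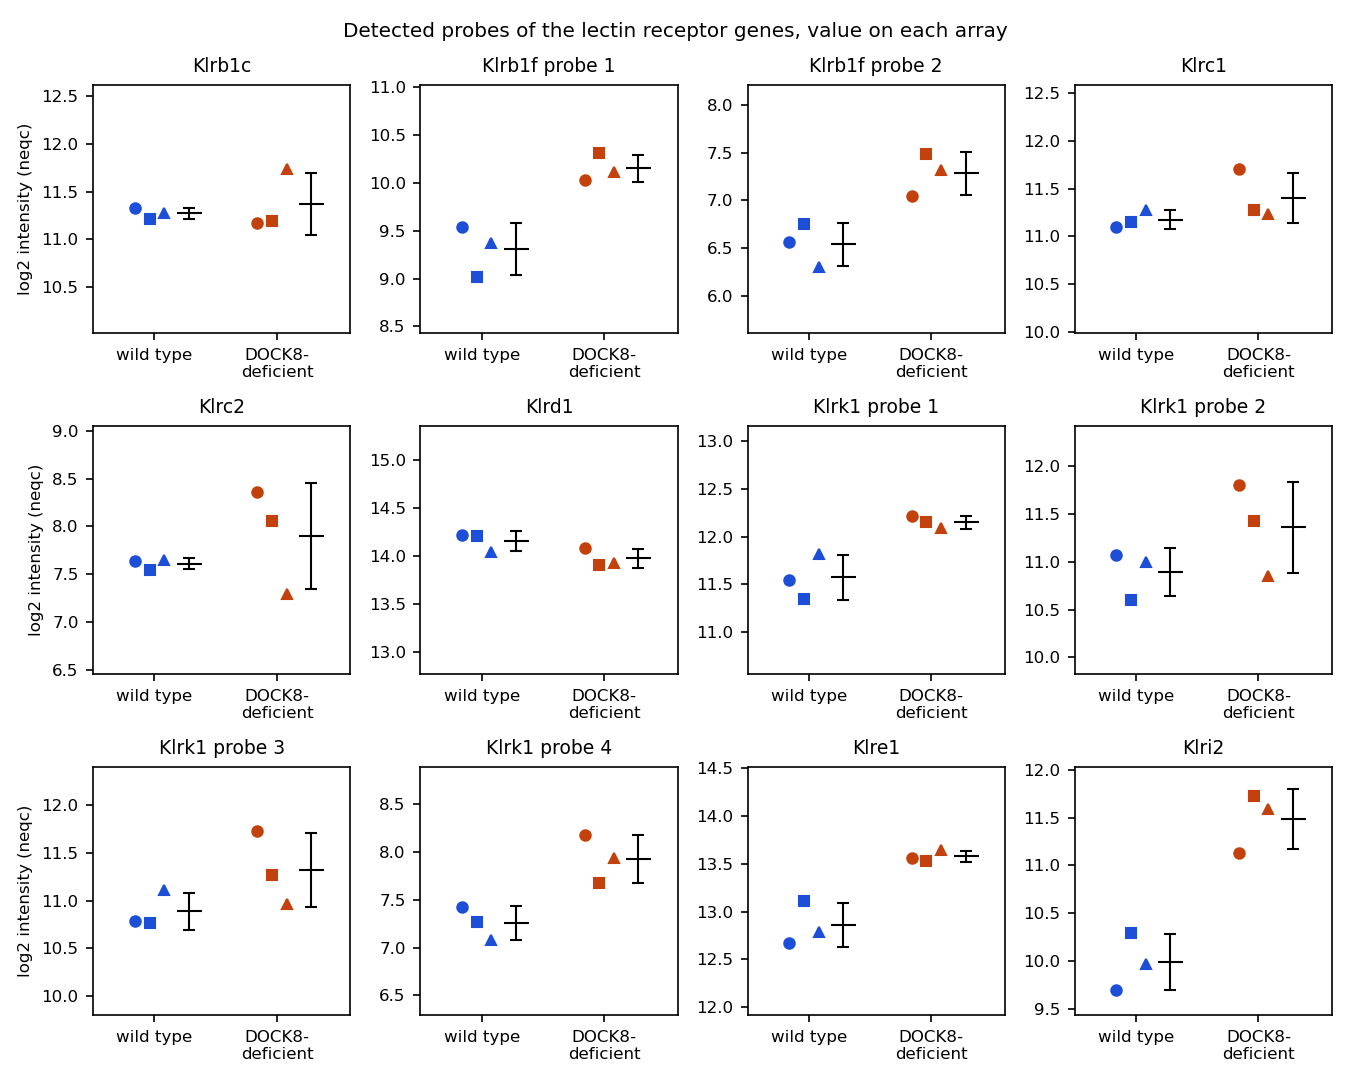
Normalised log2 intensity (vertical axis, a span of 2.6 in every panel) of the 12 detected probes on the 3 wild type (blue) and 3 DOCK8-deficient (orange) arrays, with circle, square and triangle for replicates 1, 2 and 3 and a bar for the mean ± SD. The groups stand apart for both Klrb1f probes, Klrk1 probes 1 and 4, Klre1 and Klri2, and overlap for the others.

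Klri2 had the widest difference of the 12 probes. Its product is the activating partner of KLRE1 in the rat. Probe ILMN_2651722 read 9.70, 10.29 and 9.97 on the log2 scale on wild type arrays 1, 2 and 3, and 11.13, 11.73 and 11.59 on DOCK8-deficient arrays 1, 2 and 3. The lowest DOCK8-deficient value lay above the highest wild type value, and within each group replicate 2 was the brightest and replicate 1 the dimmest. The difference was 1.50 ± 0.21 (SE), or 2.82-fold with a 95% interval of 2.0 to 3.97, at a limma adjusted p of 0.054 over all probes. In order of p this was number 32 of 14559, the first probe past the 31 that were called. The adjusted p was 0.037 over 9060 genes and 0.0026 without background correction, where the difference was 1.34. With the replicate numbers as a block it was 0.13.

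Klre1 (probe ILMN_1239346), whose product is the shared chain of the KLRE1 receptors, read 12.67, 13.11 and 12.79 on wild type arrays and 13.56, 13.53 and 13.64 on DOCK8-deficient arrays. The DOCK8-deficient values had an SD of 0.06 (n = 3) and lay above every wild type value. The difference was 0.72 ± 0.15 (SE), or 1.65-fold with an interval of 1.29 to 2.11 (limma adjusted p = 0.15). Without background correction it was 0.71 and passed, at an adjusted p of 0.012. The limma adjusted p was 0.93 with median scaling in place of quantile normalisation and 0.34 with the replicate numbers as a block. Klri1, the inhibitory partner of KLRE1 in the rat and not among the 10, was dim, with 2 tested probes at -0.24 and -0.11 and overlapping groups (limma adjusted p = 0.83 and 0.93).

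Of the NKR-P1 genes, Klrb1f was set apart between the groups on both tested probes and the NK1.1 gene overlapped. Klrb1f encodes NKR-P1F, a receptor for lectins of the Clr family. On probe 1 (ILMN_2604651) it read 9.54, 9.01 and 9.37 in wild type cells and 10.03, 10.31 and 10.11 in DOCK8-deficient cells. On probe 2 (ILMN_2694646) the values were 6.56, 6.75 and 6.31 in wild type cells and 7.04, 7.49 and 7.31 in DOCK8-deficient cells. Both probes set the groups apart in the same direction. The differences were 0.84 ± 0.17 (1.80-fold, interval 1.36 to 2.37) and 0.74 ± 0.18 (1.67-fold, interval 1.26 to 2.22), with limma adjusted p of 0.14 and 0.19. Without background correction probe 1 passed at 0.015 with a difference of 0.68, while probe 2 read 0.29 (adjusted p = 0.19). For probe 1 the limma adjusted p was 0.64 with median scaling and 0.34 with the replicate numbers as a block.

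Klrb1c (probe ILMN_2952650), the gene of the NK1.1 antigen on which the cells were sorted, read 11.33, 11.21 and 11.28 in wild type cells and 11.18, 11.19 and 11.74 in DOCK8-deficient cells. Replicate 3 of the DOCK8-deficient group was the highest of the 6 arrays and the other 2 the lowest. The difference was 0.10 ± 0.18 (SE, 95% interval -0.32 to 0.51, limma adjusted p = 0.90), and it read -0.09 without DOCK8-deficient replicate 3. As a ratio the interval runs from 0.80 to 1.43. Since NK1.1 was used in the sort, its level within these cells says nothing of how many cells carried it in the thymus. Klrb1a, an NKR-P1 gene close to it on the chromosome, was detected on too few arrays to be tested, with log2 values of 4.86 to 6.09 over the 6 arrays.

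The CD94 and NKG2 genes of the Qa-1 receptor overlapped between the groups. Klrd1 (ILMN_1255860), which encodes CD94, was the only gene of the 8 to read lower, with 14.22, 14.21 and 14.04 in wild type cells and 14.08, 13.91 and 13.93 in DOCK8-deficient cells. Its difference was -0.18 ± 0.13 (SE, interval -0.49 to 0.12, limma adjusted p = 0.70). Klrc1 (ILMN_2713909), the inhibitory NKG2A chain, read 11.09, 11.15 and 11.28 in wild type cells and 11.70, 11.27 and 11.23 in DOCK8-deficient cells. Its difference of 0.23 ± 0.17 (interval -0.15 to 0.61, adjusted p = 0.70) rested most on DOCK8-deficient replicate 1, without which it was 0.08.

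Klrc2 (ILMN_1243869), the activating NKG2C chain, was the most variable receptor gene within a group. It read 7.64, 7.54 and 7.65 in wild type cells, an SD of 0.06, and 8.36, 8.06 and 7.29 in DOCK8-deficient cells, an SD of 0.55. DOCK8-deficient arrays 1 and 2 were above every wild type array and array 3 was below them all. The difference was 0.29 ± 0.26 (interval -0.30 to 0.88, limma adjusted p = 0.76), or 0.06 without replicate 1 and 0.60 without replicate 3 of that group. Klrc1, Klrc2 and Klrc3 are similar in sequence and may share signal. The single Klrc3 probe was detected on 0 arrays.

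**Figure D2:**
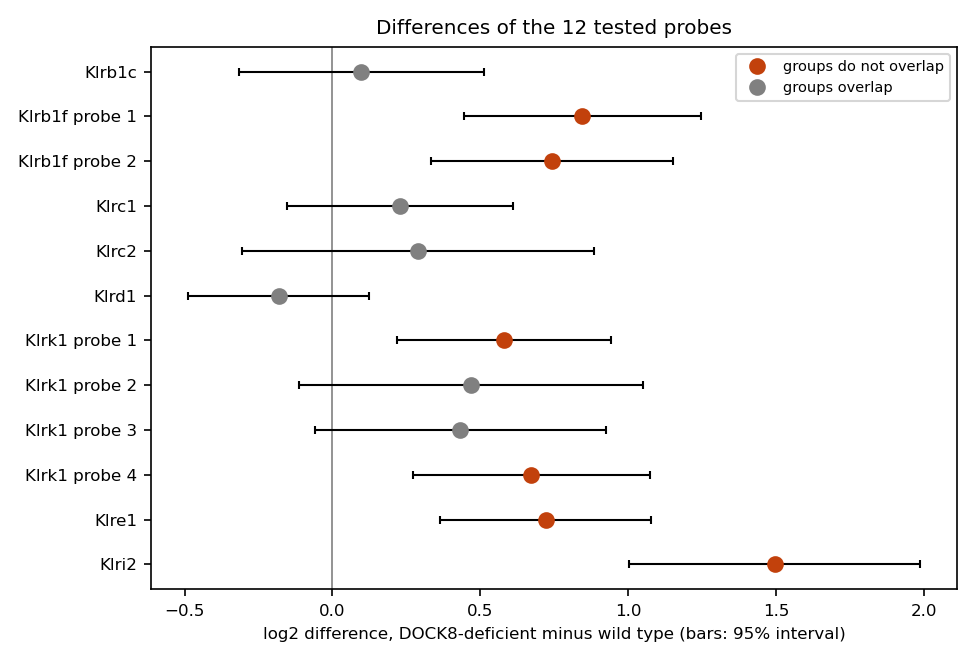
Log2 difference between DOCK8-deficient and wild type cells (horizontal axis) for each of the 12 probes, with the 95% interval from limma and 3 arrays per group. Orange points are probes whose groups do not overlap, from 0.58 for Klrk1 probe 1 to 1.50 for Klri2, and grey points those that overlap, from -0.18 for Klrd1 to 0.47 for Klrk1 probe 2.

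NKG2D was read by 4 probes, all higher in DOCK8-deficient cells by similar amounts but with different separation. The probes are numbered by their mean in wild type cells, as are those of Klrb1f. Klrk1 probe 1 (ILMN_2888493) read 11.55, 11.35 and 11.82 in wild type cells and 12.22, 12.15 and 12.09 in DOCK8-deficient cells. Probe 4 (ILMN_1226816) read 7.43, 7.27 and 7.07 in wild type cells and 8.18, 7.68 and 7.93 in DOCK8-deficient cells. On these 2 probes the groups stood apart. Their differences were 0.58 ± 0.16 (1.49-fold, interval 1.16 to 1.92) and 0.67 ± 0.17 (1.59-fold, interval 1.21 to 2.10), with limma adjusted p of 0.25 and 0.23. Without background correction probe 4 read 0.34 (adjusted p = 0.15) and probe 1 passed, at 0.55 (0.040). Probe 1 did not pass with median scaling, nor with the replicate numbers as a block (limma adjusted p = 0.45).

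Klrk1 probe 2 (ILMN_1236317) read 11.07, 10.60 and 11 in wild type cells and 11.80, 11.43 and 10.85 in DOCK8-deficient cells. Probe 3 (ILMN_2692703) read 10.79, 10.76 and 11.11 in wild type cells and 11.73, 11.27 and 10.96 in DOCK8-deficient cells. On both, DOCK8-deficient replicate 3 lay among the wild type arrays, and replicate 1 was the highest. The differences were 0.47 ± 0.25 and 0.43 ± 0.21 (limma adjusted p = 0.58 and 0.55). Without replicate 1 of that group they were 0.25 and 0.23, and without replicate 3 they were 0.72 and 0.61. The 4 probes read transcripts of 1 gene and are not replicates of each other. Where each lies on the Klrk1 transcripts was not determined here.

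**Figure D3:**
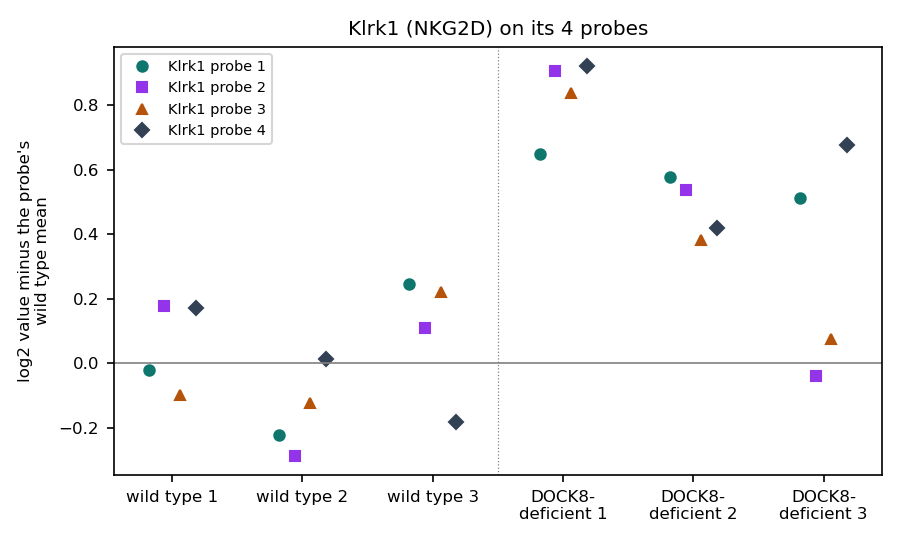
Log2 value of each of the 4 Klrk1 probes on each array minus that probe's wild type mean (vertical axis), wild type arrays to the left and DOCK8-deficient arrays to the right of the dotted line. All 4 probes lie above 0 on DOCK8-deficient arrays 1 and 2, and on array 3 probes 1 and 4 do while probes 2 and 3 lie near 0.

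In chromosomal order, the receptors that differed most were not one block. Klrd1 stands between Klre1 and Klrk1 and read -0.18 between 0.72 and 0.58 (Klrk1 probe 1), and the NKG2 genes Klrc2 and Klrc1 follow Klrk1 with 0.29 and 0.23. Klri2 lies between Klri1 at -0.24 and Klrh1, another NK lectin gene not among the 10. Klrh1 read 5.82, 5.79 and 6.23 in wild type cells and 7.73, 6.96 and 7.51 in DOCK8-deficient cells on its brighter probe, with no overlap. Its difference was 1.45 ± 0.23 (SE, limma adjusted p = 0.072), and its second probe read 1.62 ± 0.32. Of the 17 other lectin genes listed, 12 were on the array, 5 were detected and 0 passed, with a median difference of 0.38 against -0.0049 over all genes. After Klrh1 the smallest p in that list were those of the activation marker Cd69, at 0.86 (adjusted p = 0.19), and Clec1a, at 0.38 (0.54). Klrb1b, the inhibitory NKR-P1 receptor for Clr-b, read 0.21 to 0.47 on 3 tested probes (limma adjusted p from 0.53 to 0.88), and its groups overlapped on 2 of them and stood apart, higher in DOCK8-deficient cells, on the third.

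**Figure D4:**
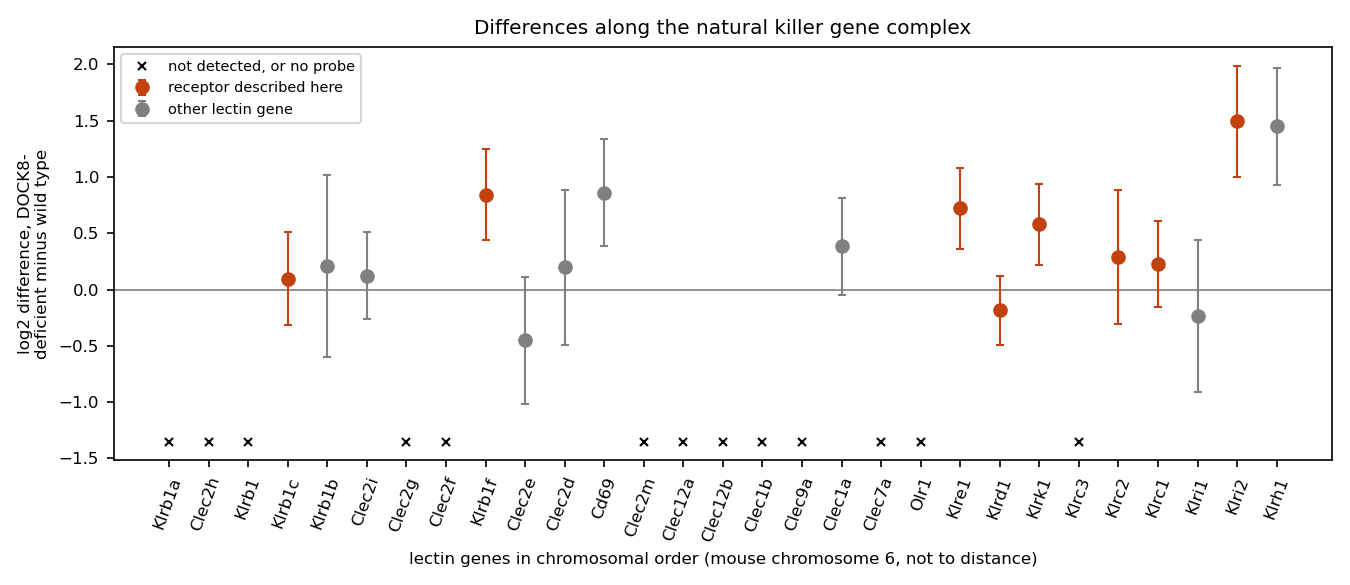
Log2 difference with 95% interval (vertical axis) of the brightest detected probe of each lectin gene, in the order of the genes on mouse chromosome 6 from Klrb1a to Klrh1 (horizontal axis, not to distance). Orange points are the receptors described here, grey points other lectin genes and crosses genes not detected or without a probe, and the 2 widest differences, Klri2 at 1.50 and Klrh1 at 1.45, are neighbours.

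Genes that act with these receptors were counted from lists chosen by function, with earlier results of these data known. Of the 24 adaptors and proximal signalling genes, 20 were detected, 8 above 0 and 12 below, with a median of -0.10, and 0 passed. The smallest p was that of Tyrobp, which encodes the adaptor DAP12 used by NKG2C and NKG2D. It read 7.26, 7.67 and 7.23 in wild type cells and 8.39, 8.30 and 8.77 in DOCK8-deficient cells, a log2 difference of 1.1 ± 0.19, or 2.14-fold (limma adjusted p = 0.089), without overlap. Hcst, the DAP10 adaptor of NKG2D, differed by -0.15 ± 0.13 (interval -0.46 to 0.16), and the Fc receptor gamma chain gene Fcer1g, the adaptor of NK1.1, by 0.17 ± 0.15. Next in order of p came the exchange factor gene Vav2 at 0.37 (adjusted p = 0.43) and the phospholipase gene Plcg2 at 0.54 (0.62, detected on 4 arrays).

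Of the 23 ligand genes listed, 9 were detected and 0 passed, with a median difference of 0.12. The ligand genes of smallest p were Cdh2, N-cadherin, at 0.72 (limma adjusted p = 0.21, detected on 4 arrays), Clec2e at -0.45 (0.58, detected on 3 arrays) and the class Ib gene H2-Q7 at 0.28 (0.65). H2-T23, which encodes Qa-1, differed by 0.01 (interval -0.31 to 0.34), Clec2i, the Clr-g ligand of NKR-P1F, by 0.12, and Cdh1, the E-cadherin ligand of KLRG1, by -0.03. These 3 were named for their role. The NKG2D ligand genes Raet1d, Raet1e and Ulbp1 were detected on 0 arrays. The other listed NKG2D ligand genes, Raet1a, Raet1b, Raet1c, H60a, H60b and H60c, had no probe with 1 symbol and were not read.

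Of 26 regulators of NK receptor expression and NK-type maturation, 19 were detected, 1 rose and 18 did not pass, against 0.265% of the 9060 genes called on their brightest probe in the same fit. The rise was Zeb2, a transcription factor of terminal NK and T cell maturation, by 1.37 ± 0.16 (limma adjusted p = 0.042), on 1 tested probe of 5. The call was lost with any 1 array left out (adjusted p from 0.060 to 0.18) and with the replicate numbers as a block (0.16), and the difference was 0.40 without background correction and 0.83 in the deposited table. The list's median was -0.06. T-bet (Tbx21) differed by -0.06 (interval -0.44 to 0.32), and the smallest p after Zeb2 belonged to Stat5a at -0.51 (adjusted p = 0.45) and Il15 at -0.28 (0.68).

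NK cells also carry NK1.1 and these receptors, so their markers are given beside the values. Of the 10 listed NK cell markers 8 were on the array and 4 were detected. Ncr1 and Eomes, which define NK cells, were detected on 0 arrays, with log2 values from 4.50 to 5.15 in both groups together. Itga2 read 0.98 higher (limma adjusted p = 0.20) and the Ly49 gene Klra8 0.96 lower (adjusted p = 0.14; log2 difference -0.96), each without overlap between groups, as was Irf8 at 0.42 (0.45), and the perforin gene Prf1 read 0.03. The summed level of the 4 was 8700 to 13332 on DOCK8-deficient arrays and 9817 to 11383 on wild type arrays. That sum mostly follows Prf1, with log2 means of 13.26 in DOCK8-deficient and 13.23 in wild type cells. The next brightest, Klra8, had means of 8.59 and 9.55.

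Of 10 double-positive thymocyte markers 6 entered the test, all with differences below 0, while 48% of all tested probes lay above 0. Dntt entered through its 3 wild type arrays alone, where it read 6.59, 6.81 and 6.74. It was not above background on any DOCK8-deficient array (4.65 to 5.40). Its direction thus came with the filter, and no call is drawn from it. Cd1d1 read -0.77 (limma adjusted p = 0.28), Rag1 and Arpp21 -0.49 each, Cd8b1 -0.07 and Cd4 -0.05. The list, Dntt included, had summed levels of 1875 to 2212 and 2233 to 2788 in the DOCK8-deficient and wild type groups. Of 10 myeloid and dendritic cell markers 4 were detected, 3 above 0 and 1 below, and 0 passed. Mpeg1 read 0.76, without overlap between groups, Lyz2 0.70, Siglech 0.23 and Csf1r, detected on 3 arrays, -0.16 (limma adjusted p from 0.32 to 0.90). The sums were 834 to 1201 and 677 to 880 in the DOCK8-deficient and wild type groups. They mostly follow Siglech, with log2 means of 9.47 and 9.24. Cd14, Flt3 and Xcr1 were among the 6 undetected ones. Only Cd79b of 7 B cell markers was detected, at -0.12, with sums of 30.2 to 60.3 and 36.1 to 63.0. The part of these cells in the receptor values was not tested.

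Quantile normalisation uses only the rank of a probe within its array, and background correction keeps that rank. Without background correction the same 6 probes were therefore set apart by construction (7.97% of all probes), so that setting is no check. In the deposited log2 table, which ranks probes within arrays as the intensities do, those 6 and 1 more were set apart, against 7.56%. With median scaling 4 of the 6 were, against 1.93%. Before normalisation, DOCK8-deficient array 2 lay below the highest wild type intensity on each of the 6 but Klri2. On Klrk1 probe 4 it read 294, against 327 to 377 on wild type arrays. On those probes the separation thus depends on the normalisation. The number of receptor probes past an adjusted p of 0.05 was 4 without background correction (of 155 probes called, 1.06%), 3 in the deposited table (of 112, 0.769%) and 4 with a trended robust prior (of 191, 1.31%), beside 0 as reported.

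**Figure D5:**
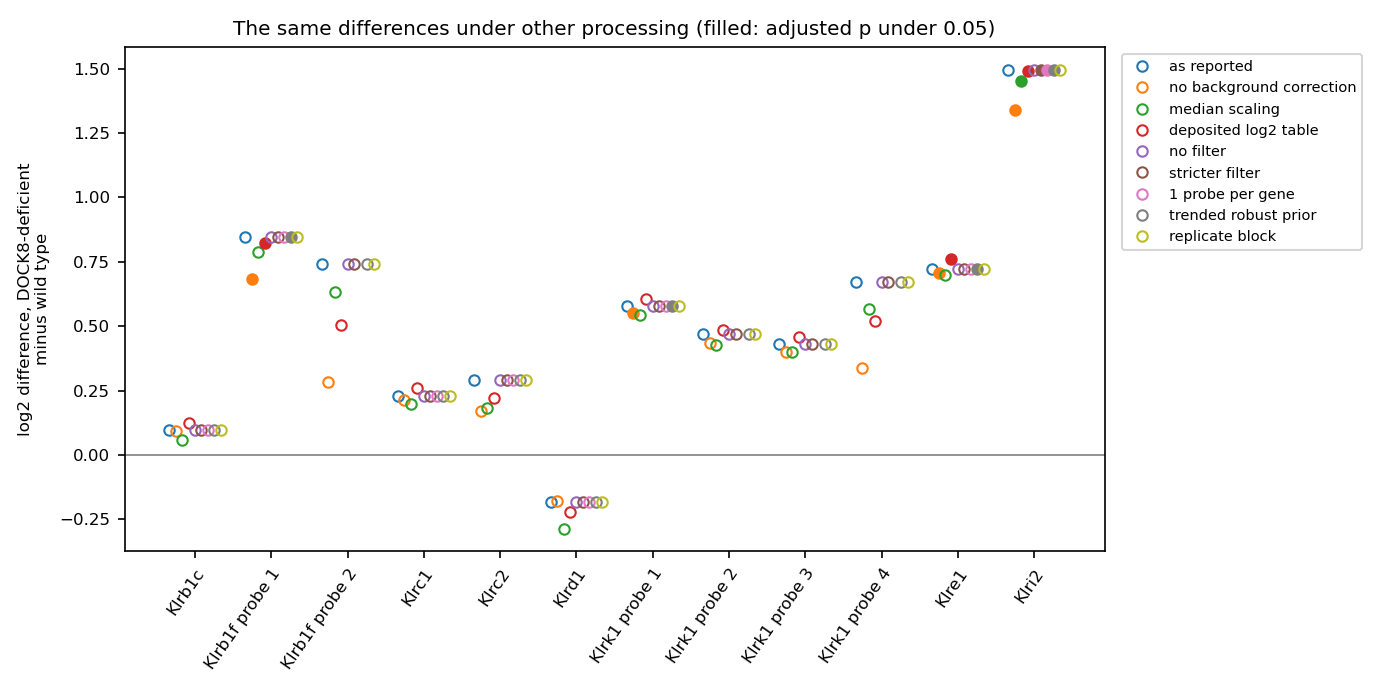
Log2 difference between DOCK8-deficient and wild type cells (vertical axis) of the 12 probes under 9 ways of processing, with filled circles where the limma adjusted p was under 0.05. Klri2 is filled in 6 of its 8 alternatives, Klrb1f probe 1 and Klre1 in 3 and Klrk1 probe 1 in 2, and no probe changes sign. The difference itself can change only without background correction, with median scaling or in the deposited table.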

How the data were processed

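RNA of 3 DOCK8-deficient and 3 wild type samples, grouped by title, was labelled with biotin and hybridised to Illumina mouse arrays, per the labels' protocols. Per the file headers, the deposited scanner table gives each probe a detection p-value and a linear intensity on each array, not background subtracted as judged from its values. Expression on a log2 scale comes from a second deposited table, and the sources used here do not give how the authors normalised it. Within arrays they rank probes as the intensities do (rank correlation 0.999999), and medians were 6.14 to 6.22.

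In R 4.3.3, neqc of limma 3.58.1 background corrected and quantile normalised the intensities (offset 16, negative controls inferred from detection p-values). Detected probes with 1 gene symbol (14559) were compared by 2-sided tests from lmFit and eBayes, as DOCK8-deficient less wild type and without a block, and p-values were adjusted by Benjamini-Hochberg over all of them at 0.05. For lists, each gene's brightest detected probe was used. Errors are moderated standard errors. The functions were tested on simulated data. The genes, lists and motifs were chosen with earlier results of these data known. Named were Dock8, every receptor probe, and in each list the genes that passed or else the 3 of smallest p (markers, 2); others were named for their role or place. Of 137 list entries, 22 had no probe with 1 symbol. Annotation gave several symbols to 18 probes and listed none for 10378. No source used here gives chip positions, so no array batch was analysed. Same-numbered replicates did not deviate together (correlations 0.03, -0.09 and -0.25), so the numbers were not treated as pairs. The number of arrays limits the precision.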

Additional observations from a re-analysis of the deposited data

Results flagged for a closer look

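The Klrb1a probe, which entered no test, was detected on DOCK8-deficient replicate 3 alone (detection p 0.0043), where it read 6.09 on the log2 scale against 4.97 to 5.44 in wild type cells. It drew attention as a signal on a probe outside the comparison, above every control array. The other 2 DOCK8-deficient arrays read 4.95 and 4.86. On wild type replicates 1 and 2 its detection p was 0.0502, just past the limit.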

How the results depend on the processing

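Over 8 other ways of processing (7 for probes that are not the brightest of their gene), the 12 receptor differences kept their sign. In the 6 fits without 1 array they did too, except that of Klrb1c, which read -0.087 without DOCK8-deficient replicate 3. The changes of filter, 1 probe per gene, the trended prior and the replicate block refit the same values, so no difference could change there. Nor can leaving out 1 array reverse a probe whose groups do not overlap. With each array left out in turn the ranges were 1.35 to 1.67 for Klri2 (adjusted p from 0.060 to 0.25), 0.63 to 0.85 for Klre1, 0.70 to 0.96 and 0.62 to 0.86 for Klrb1f probes 1 and 2, -0.09 to 0.19 for Klrb1c, 0.08 to 0.31 for Klrc1, 0.06 to 0.60 for Klrc2 and -0.24 to -0.15 for Klrd1, and 0 receptor probes passed in any of them.

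Receptor probes that passed elsewhere were, without background correction, Klri2 at 1.34, Klrb1f probe 1 at 0.68, Klre1 at 0.71 and Klrk1 probe 1 at 0.55, in the deposited log2 table Klri2 at 1.49, Klrb1f probe 1 at 0.82 and Klre1 at 0.76, with a trended robust prior Klri2 at 1.50, Klrb1f probe 1 at 0.84, Klre1 at 0.72 and Klrk1 probe 1 at 0.58, with median scaling Klri2 at 1.45, and with a stricter filter (detection p under 0.01) or 1 probe per gene Klri2 at 1.50. That is 4, 3, 4, 1, 1 and 1 probes in place of 0. Klrb1f probe 2 and Klrk1 probe 4, both dim, read 0.29 in place of 0.74 and 0.34 in place of 0.67 without background correction. Over the whole table the calls were 155 without background correction, 62 with median scaling, 112 in the deposited table, 9 without a filter, 50 with the stricter filter and 191 with the trended prior, against 31, and 1 to 16 with an array left out.

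The replicate numbers share no stated origin. With them as a replicate block 0 probes passed in the whole table, the receptor differences were the same and the adjusted p for Klri2 was 0.13, and the regulator list lost its call, Zeb2.

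The other lectin genes had 2, 1, 1, 1 and 2 calls without background correction, with median scaling, in the deposited table, with the stricter filter and with the trended prior, against 0. The adaptor list had 1 call without background correction, 1 in the deposited table and 1 with the trended prior, against 0. The regulator list had 0 calls with any array left out, Zeb2 being the call lost. The cause of these changes was not tested. Dim probes carry little signal over background.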
